A study of Mus musculus with 30 samples.

Results

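Broad H3K9ac domains are stretches of 4000 bp or more in which histone H3 acetylated at lysine 9 was called by chromatin immunoprecipitation and sequencing (ChIP-seq). They were taken from NOS1+ N1E115 cells, a mouse neuroblastoma line labelled as brain neuroblast, cultured for 3 days at 4% or 20% O2. Peaks of the 4 H3K9ac libraries, 2 at each O2 level, were merged where they overlapped by 1 bp or more on chromosomes 1 to 19, X and Y. Merged regions with a peak in all 4 libraries and a merged width of at least 4000 bp were kept. This left 1820 domains of 39931 regions shared by the 4 libraries and of 104182 merged regions in all. The members were thus chosen by the presence and extent of H3K9ac peaks. From the same cells came 4 libraries each for CTCF (an insulator protein), RAD21 (a subunit of cohesin), total RNA polymerase II (POLR2), polymerase with phosphoserine 5 (POLR2S5) and polymerase with phosphoserine 2 (POLR2S2). The groups share the line and differ, per the labels, only in O2. Whether the 2 libraries of a group stem from separate cultures is not stated in the labels, and the spread on which the p-values rest may be technical. A ChIP signal from many cells does not tell fewer marked cells from less of the mark per cell.

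H3K9 acetylation is laid down by acetyltransferases such as KAT2A around the starts of active genes and at enhancers, and is removed by histone deacetylases. Most acetylated regions are short, and wide ones are known to lie at genes that define a cell type, such as the transcription factors of the sympathetic lineage from which neuroblastoma arises. RNA polymerase II is phosphorylated at serine 5 near initiation and at serine 2 as it moves through the gene, and CTCF with cohesin holds the anchors of chromatin loops.

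Promoter sequences were chosen to show what lay at the edges and in the gaps of the domains. They are the 250 bases before an annotated start (RefSeq, GRCm38.p6, the same build as mm10), printed 5′ to 3′ on the gene's strand. Hand2 encodes a basic helix-loop-helix factor of sympathetic neurons, and Aldoa encodes a glycolytic aldolase. Each start lay just inside a broad domain, and a short gap upstream of it separates that domain from the next one; capitals mark the bases of the gap.
Hand2, chr8:57320733-57320982, plus strand: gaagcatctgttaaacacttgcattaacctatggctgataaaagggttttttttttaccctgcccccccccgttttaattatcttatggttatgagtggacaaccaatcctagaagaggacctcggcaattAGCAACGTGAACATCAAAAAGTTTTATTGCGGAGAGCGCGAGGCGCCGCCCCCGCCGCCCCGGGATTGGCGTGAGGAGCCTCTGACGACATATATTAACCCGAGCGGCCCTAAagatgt
Aldoa, chr7:126799179-126799428, minus strand: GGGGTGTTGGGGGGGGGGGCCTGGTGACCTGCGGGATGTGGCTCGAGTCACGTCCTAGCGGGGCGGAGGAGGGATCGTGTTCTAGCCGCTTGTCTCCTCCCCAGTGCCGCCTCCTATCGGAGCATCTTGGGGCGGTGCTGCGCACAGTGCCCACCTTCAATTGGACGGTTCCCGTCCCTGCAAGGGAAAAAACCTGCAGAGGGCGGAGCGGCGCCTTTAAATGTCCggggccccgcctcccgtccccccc
The Hand2 gap of 113 bp lay whole within this window, and 226 bases of the 330 bp gap at Aldoa did. The next sequences come from genes whose start lay further inside a domain, with CG dinucleotides in capitals. Phox2a encodes a homeobox factor of noradrenergic neurons and Th the tyrosine hydroxylase that starts catecholamine synthesis.
Phox2a, chr7:101818063-101818312, plus strand: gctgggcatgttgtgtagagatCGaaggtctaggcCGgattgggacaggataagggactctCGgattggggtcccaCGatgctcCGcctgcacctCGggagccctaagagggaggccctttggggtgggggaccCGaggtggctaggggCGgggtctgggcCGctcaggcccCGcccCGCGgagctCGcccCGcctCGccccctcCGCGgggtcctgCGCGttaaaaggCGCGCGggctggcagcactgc
Th, chr7:142899996-142900245, minus strand: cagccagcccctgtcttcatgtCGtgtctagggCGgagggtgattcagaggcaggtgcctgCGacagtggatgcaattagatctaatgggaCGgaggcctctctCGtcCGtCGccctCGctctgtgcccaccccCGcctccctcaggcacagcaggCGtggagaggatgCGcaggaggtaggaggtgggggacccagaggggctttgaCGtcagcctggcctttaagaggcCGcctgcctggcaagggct
Phox2a held 22 CG dinucleotides and Th 13 in these 250 bases.

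Several domains lay over or beside microRNA genes, and the mature sequences are shown by their seeds (bases 2 to 8, in capitals), which are the part that pairs with targets. Of 1005 hairpins in the RefSeq table, 152 lay in a shared H3K9ac region and 28 in one of 25 broad domains. The hairpins of miR-15b and miR-16-2 lay in or across the edge of the domain at Smc4 and Ift80, those of miR-195a and miR-497a in the domain at Bcl6b. All 4 have the same seed.
miR-15b-5p: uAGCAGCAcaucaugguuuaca
miR-16-5p: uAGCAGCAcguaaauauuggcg
miR-195a-5p: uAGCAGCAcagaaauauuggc
miR-497a-5p: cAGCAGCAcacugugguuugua
The let-7i hairpin lay inside a domain of 4869 bp (chr10:122983021-122987889). The let-7c-2 and let-7b hairpins lay 19.5 and 20.2 kb to the right of the widest domain outside annotated genes, inside the polymerase region that covered it. These 3 share the let-7 seed.
let-7i-5p: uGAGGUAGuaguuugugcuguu
let-7c-5p: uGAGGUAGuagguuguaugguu
let-7b-5p: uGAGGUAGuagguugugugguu
Other domains held a single hairpin of a conserved microRNA. The miR-137 domain was 8353 bp wide (chr3:118428807-118437159), the miR-125b-1 domain 5883 bp (chr9:41580707-41586589) and the miR-210 domain, at Rassf7, 5893 bp (chr7:141215859-141221751).
miR-137-3p: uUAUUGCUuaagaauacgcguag
miR-125b-5p: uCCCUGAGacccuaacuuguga
miR-210-3p: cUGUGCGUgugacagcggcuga
H3K9ac peaks covered 91.0% and 91.9% of the miR-137 domain at 4% O2 (replicates 1 and 2) and 83.4% and 97.2% at 20% O2. For miR-210, a microRNA known for its induction by hypoxia, the shares were 29.6% and 97.9% at 4% and 7.81% and 86.2% at 20% O2. The miR-210 domain was thus wide mainly in the 2 libraries numbered 2, while the miR-137 domain was wide in every library.

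Domain widths ran from 4000 to 25044 bp, with quartiles of 4381, 4971 and 5984 bp. The median of all shared regions was 1402 bp. The domains made up 4.56% of shared regions but 14.8% of their summed width, or 10.03 Mb, and 53 of them reached 10 kb. Just outside the threshold were 2 regions of 3998 bp, at Ndufa4l2 (chr10:127513092-127517089) and outside genes (chr12:5260001-5263998). The narrowest members were one of 4000 bp at Rfx3 (chr19:28007143-28011142) and one of 4002 bp at Pldi (chr10:60934640-60938641). A further 8 merged regions were wide enough but had no peak in at least 1 library. Without 4% O2 replicate 2 the rule gave 1206 domains.

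A merged width is the union of 4 lists, and few domains were equally wide in each. At the median domain, 55.2% of the bases were under a peak in all 4 libraries, and in 1093 domains that share was 50% or more. Peaks covered a median of 75.4% and 95.9% of a domain at 4% O2 (replicates 1 and 2) and 62.3% and 92.8% at 20% O2. A single unbroken peak of at least 4 kb was present in all 4 libraries in 67 domains, in both replicate 2 libraries but neither replicate 1 library in 401, and in no library in 604. The difference between the replicate numbers was therefore larger than that between O2 levels. Between O2 levels, 17 domains had such a peak only in the 2 libraries at 4% O2 and 2 only in those at 20%. The replicate numbers mark flow cells, per the file headers. What else set the replicates apart is not stated in the labels. The highest peak score of the median domain ranked at percentile 83.1 and 85.9 of all shared regions at 4% O2 and 78.2 and 85.8 at 20% O2, so broad domains mostly held high peaks as well. These values come from the lists that chose the domains and are a description.

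**Figure D1:**
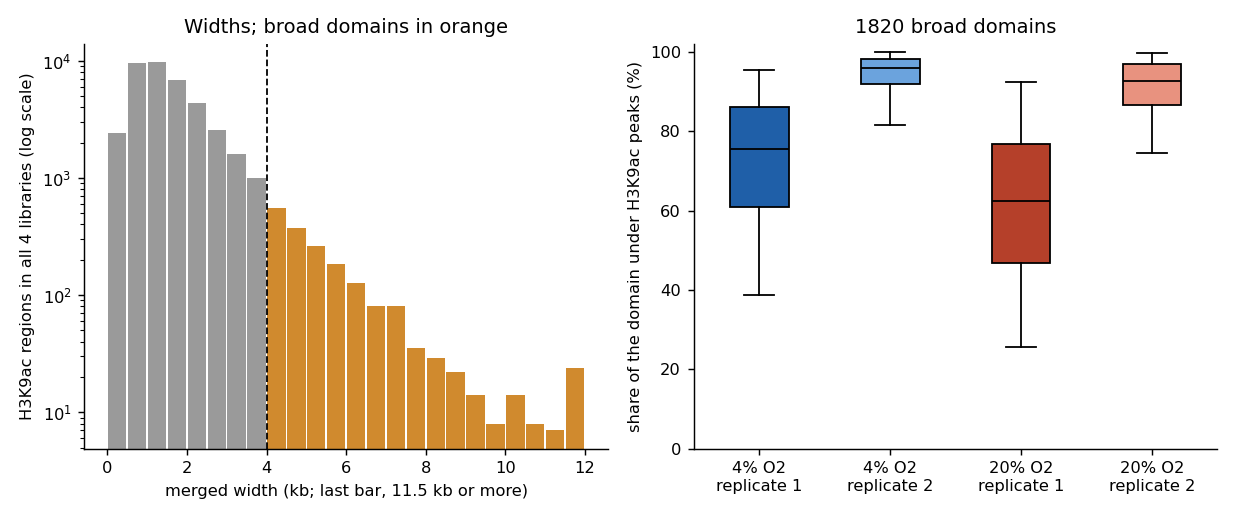
Left, number of H3K9ac regions called in all 4 libraries (log axis) by merged width in kb, with domains of 4 kb or more in orange. Right, share of each of the 1820 domains under H3K9ac peaks in each library (box, quartiles and median; whiskers, 5th to 95th percentile); the replicate 2 libraries, with medians of 95.9% and 92.8%, lie above the replicate 1 libraries, with 75.4% and 62.3%.

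The widest domain, of 25044 bp, lay at Cxxc5, a gene of a CXXC zinc finger protein (chr18:35827666-35852709). Peaks covered 84.2% and 98.0% of it at 4% O2 and 59.5% and 95.5% at 20% O2. Second was a domain of 22141 bp outside annotated genes (chr15:85664971-85687111), 83.2 kb from Wnt7b and 48.7 kb from Ppara, which was covered by 90.7% or more in every library and had no CTCF or RAD21 region called in all 4 libraries. A domain of 21983 bp followed inside Slit3, the gene of an axon guidance ligand (chr11:35536490-35558472), then one of 20217 bp at Frmd4a (chr2:4555448-4575664) and one of 18354 bp inside Gse1 (chr8:120545544-120563897). The Gse1 domain was the least uniform of these: peaks covered 45.5% and 96.3% of it at 4% O2 and 19.9% and 90.2% at 20% O2.

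Hand2 had 2 of the widest domains, of 17259 bp (chr8:57320977-57338235) and 12311 bp (chr8:57308553-57320863). They were also among the most even: H3K9ac covered 94.2%, 97.3%, 94.7% and 98.1% of the first in 4% O2 replicates 1 and 2 and 20% O2 replicates 1 and 2, and 99.2%, 97.0%, 98.8% and 93.3% of the second. With the gap shown above, the pair spanned both sides of the Hand2 start. The remaining domains among the 10 widest lay inside Macrod1 and Flrt1 (16728 bp, chr19:7107506-7124233), at Mab21l2 (16172 bp, chr3:86537495-86553666), at Setd1b, the gene of a histone H3 lysine 4 methyltransferase (16122 bp, chr5:123133647-123149768), and at Ptgir, the prostacyclin receptor gene (15785 bp, chr7:16898113-16913897). Mab21l2 was covered by 90.6% or more in every library, whereas the Macrod1 domain was covered by 41.1% and 92.5% at 4% O2 and 32.6% and 94.2% at 20% O2.

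Some broad domains lay close together. Of the 1820, 365 lay within 10 kb of another and 147 within 1 kb, although the median distance to the nearest was 73534 bp. Joining domains with gaps of up to 10 kb gave 160 runs, of which 32 held 3 or more. The run with the most domains had 6, within Macrod1 and Flrt1 and their surroundings (chr19:7101581-7160774). Runs of 5 lay at Rara, a retinoic acid receptor gene (chr11:98922022-98972360), and around Lmf1 (chr17:25579155-25627466). There were 77 gaps of up to 1000 bp, with a median of 133 bp. A coding gene start lay within 250 bp of 15 of these gaps, as at Hand2, Aldoa and Gata2 (a gap of 109 bp). A CTCF region called in all 4 libraries lay within 100 bp of 18 gaps and a RAD21 region within 100 bp of 13, while 48 had neither such a start nor such a CTCF region.

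By chromosome, 7.24% of shared regions on chromosome 15 were broad, 5.89% on chromosome 11 and 5.88% on chromosome 2. Chromosome X had 8 broad domains, 1.09% of its shared regions, and chromosome Y none.

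Broad domains lay at gene starts more often than shared regions as a whole. A coding gene start was within 1 kb of 972 domains (53.4%, against 42.0% of all 39931 shared regions) and inside 773 (42.5% against 16.1%). Part of that contrast follows from width alone, and the share with a start within 1 kb was 50.7% for shared regions of 3 to 4 kb, 52.3% for domains of 4 to 6 kb and 56.7% for those of 6 kb or more. A further 161 domains lay at the start of a long noncoding RNA gene (8.85% against 4.99%), 451 inside a gene away from its start (24.8% against 25.4%) and 236 outside genes (12.97% against 27.6%). The share outside genes was thus lower, and that at long noncoding RNA starts higher, than among all shared regions, while the intragenic share was close in both sets.

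Around the start the acetylation was lopsided. For 657 genes whose start and strand were known and lay inside a domain, the domain reached a median of 1689 bp upstream and 3425 bp downstream, and in 497 (75.6%) the downstream part was the longer. Averaged over the 4 libraries, H3K9ac peaks covered 75.3% of these genes 1000 bp upstream, 72.0% at the start itself, 92.2% at 500 bp, 69.5% at 2000 bp and 23.5% at 5000 bp downstream. At 4672 starts inside narrower shared regions the values were 44.97%, 66.4%, 86.6%, 22.5% and 4.57%. In these means the dip at the start was present in both sets, but it came mainly from the replicate 1 libraries. From 250 bp upstream to the start, their cover in broad domains fell from 79.5% to 57.7% at 4% O2 and from 80.8% to 57.4% at 20% O2. In the replicate 2 libraries it went from 92.1% to 83.0% and from 91.8% to 89.8%. In narrower regions it rose in 20% O2 replicate 2, from 78.2% to 80.8%. POLR2S5 islands covered 95.4% of starts in broad domains and 81.8% at 5000 bp downstream, against 92.7% and 54.3% in narrower regions. POLR2S2, the elongating form, covered 79.1% at the start and 68.5% at 10000 bp downstream, against 70.7% and 47.5%. The widths of the H3K9ac profiles follow from the rule, but those of the polymerase do not.

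**Figure D2:**
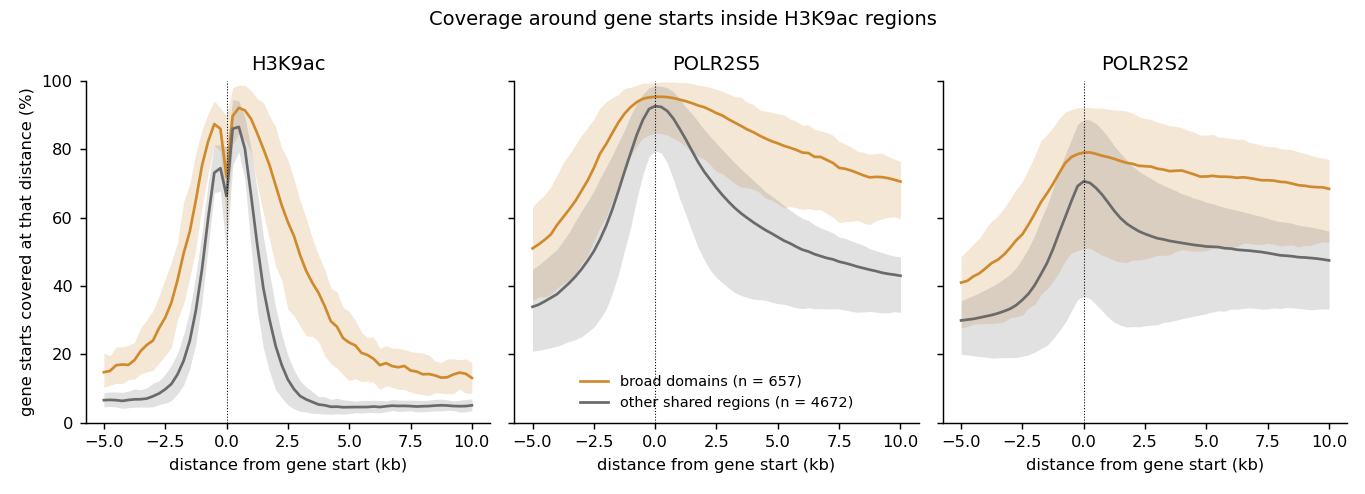
Share of gene starts covered by H3K9ac peaks, POLR2S5 islands or POLR2S2 islands (y axis, %) by distance from the start in kb (positive values, downstream), for 657 starts in broad domains and 4672 in other shared regions. Lines are means of 4 libraries and bands their lowest to highest library; POLR2S2 at 10 kb downstream averages 68.5% against 47.5%.

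The 250 bases before these starts were rich in CG, as at starts of narrower acetylated regions. The median was 16 CG dinucleotides in 858 promoters of broad domains, 16 in 5424 promoters of other shared regions and 10 in all 21263 promoters. On either strand, the letters GGGCGG (a GC box) occurred in 57.7%, 59.4% and 42.6% of the 3 sets, TATAAA in 6.41%, 5.72% and 11.6%, and CCAAT in 24.5%, 30.9% and 35.4%. CACGTG occurred in 7.23%, 7.95% and 6.63%, and the shorter ACGTG, which it contains, in 18.4%, 21.3% and 17.8%. The sequence composition of broad and narrower acetylated starts was therefore close for these letters, with CCAAT the least frequent in broad domains; these are matches of letters and not binding sites.

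Nearly every broad domain had an island of some polymerase form in at least 1 library, as did most shared regions. POLR2S5 islands were present in all 4 libraries at 1287 domains (70.7%, against 49.4% of all shared regions), POLR2 islands at 863 (47.4% against 37.0%) and POLR2S2 islands at 675 (37.1% against 21.0%). All 3 forms in all their libraries were present at 511 domains (28.1% against 16.2%), and 11 domains (0.604% against 8.31%) had no island of any form in any library. Regions of 3 to 4 kb lay nearer to the domains: 45% had POLR2, 62.7% POLR2S5 and 30.3% POLR2S2 in all 4 libraries, and 1.38% had no form. The order of the forms, POLR2S5 above POLR2 above POLR2S2, held in each of the classes of domains except inside genes, where POLR2 (23.7%) and POLR2S2 (25.9%) were close. At gene starts the shares were 62.7% for POLR2, 82.9% for POLR2S5 and 52.1% for POLR2S2. Outside genes they were 35.6%, 56.4% and 10.2%, and at long noncoding RNA starts 39.1%, 62.1% and 17.4%. The requirement of all 4 libraries was set mainly by 1 of them: 20% O2 replicate 1 had POLR2 islands at 875 domains, where the other 3 libraries had them at 1634, 1668 and 1730.

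CTCF was called in all 4 libraries at 970 domains (53.3%, against 32.5% of all shared regions), RAD21 at 573 (31.5% against 19.1%) and both at 537. With the higher-scoring part of each list alone, RAD21 was called at 282 domains. The RAD21 count was set mainly by 20% O2 replicate 1, which had RAD21 peaks at 584 domains. The numbers were 1105 and 1492 at 4% O2 and 1481 in 20% O2 replicate 2. In both replicate 2 libraries RAD21 was at more domains than CTCF (1492 against 1180 and 1481 against 1129). Only 11.6% of domains had no RAD21 peak in any library. Per length the order turned: broad domains held 0.136 CTCF and 0.0721 RAD21 regions per kb, against 0.225 and 0.131 in all shared regions. These densities count every region that touches, also at an edge, which raises them in narrow regions. The turned order therefore follows in part from the counting. The densities below count centres instead. The share with CTCF was 48.8% at 4 to 6 kb and 67.0% at 6 kb or more, against 40.7% at 3 to 4 kb. Around the domains, CTCF centres were densest in the first 500 bp outside the edge, at 0.166 per kb. Inside they numbered 0.105 per kb, and 0.0714 and 0.0571 per kb at 0 to 5 and 5 to 10 kb outside. RAD21 showed the same order, with 0.0852 per kb in the first 500 bp outside, 0.0542 inside, 0.0333 at 0 to 5 kb and 0.0290 at 5 to 10 kb outside. An H3K9ac region ends where its peaks end, so the position of the edge depends on how the peaks were called.

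**Figure D3:**
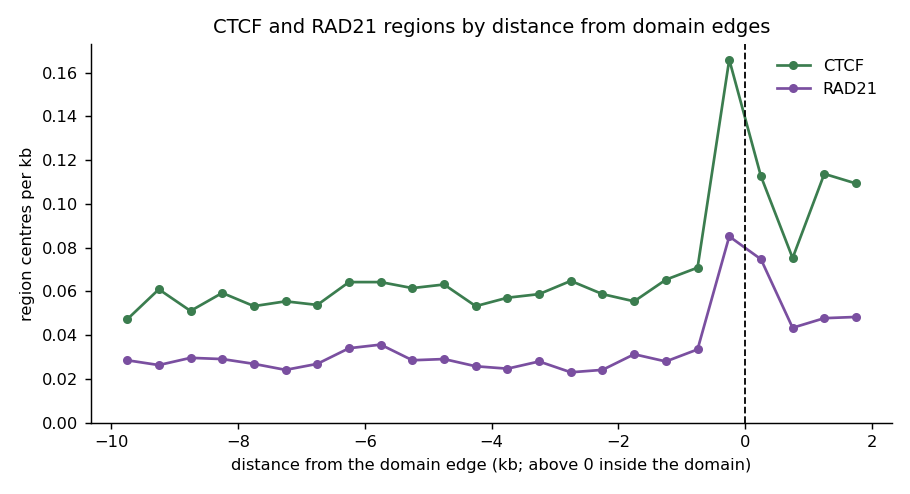
Centres of CTCF and RAD21 regions called in all 4 libraries per kb (y axis) by distance from the nearest edge of the 1820 broad domains in kb (values above 0 lie inside). Both densities are highest in the first 500 bp outside the edge, at 0.166 per kb for CTCF and 0.0852 for RAD21.

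The domains with most CTCF regions called in all 4 libraries were one of 9337 bp outside genes, 49.4 kb from Dlk1 (chr12:109394058-109403394), and one of 8803 bp at Arid5b (chr10:68274431-68283233), with 5 regions each. Dlk1 is an imprinted gene of a Notch-like membrane protein. Domains with 4 lay inside Tmem104 (14664 bp, chr11:115223750-115238413), over Usp5, Cdca3 and Gnb3 (10975 bp, chr6:124830187-124841161) and inside Plec (10295 bp, chr15:76198838-76209132). RAD21 regions in these domains numbered 3 near Dlk1, 1 at Arid5b, 2 in Tmem104, 0 at Usp5 and 3 in Plec.

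The labelled cell type was checked against marker lists. Of 22 neuroblast and sympathetic markers, 14 had a broad domain within 1 kb of their start, against 1094 of all 21887 coding genes (5.00%). They included Hand2, Th, Ret, Insm1, Chgb, Phox2a, Tbx2, Dbh, Myc, Gata2, Sox11, Sox4 and Mycn. None of 7 astrocyte, 7 oligodendrocyte and Schwann cell, 7 macrophage and microglia and 6 endothelial markers had one, and 1 of 7 fibroblast markers did (Pdgfrb). Th had a domain of 12300 bp (chr7:142894917-142907216) and Ret, which encodes the receptor of glial cell line-derived neurotrophic factor, one of 10595 bp (chr6:118188933-118199527). Dbh, which converts dopamine to noradrenaline, had an uneven domain of 6936 bp (chr2:27162240-27169175), covered by 46.6% and 97.0% at 4% O2 and 22.5% and 97.7% at 20% O2.

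Among the pathway lists, that of transcription factor genes of neuroblastoma and sympathetic neurons had the largest share of broad domains. Of 29 genes, 24 had a shared H3K9ac region at their start and 15 a broad domain (62.5% of those 24, against 9.56% of all coding genes with a shared region). They included, beside Hand2, Insm1, a zinc finger gene of neuroendocrine cells (9066 bp), Phox2a (7771 bp), Tbx2 (7042 bp), Zfhx3 (6861 bp), Klf7 (6671 bp), Myc (6558 bp), Id1 (6343 bp), Gata2 (5969 and 5657 bp), Sox11 (5763 bp), Sox4 (5016 bp), Lmo1 (4842 bp), Mycn (4762 bp) and Meis1 (4090 bp). Meis1 was the most even of them, with 1 unbroken peak in each library covering 97.5%, 99.6%, 95.3% and 99.3% of its width. Sox11 and Klf7 had no CTCF peak in any library but 2 RAD21 regions each, called in all 4, whereas Hand2 had 1 CTCF region in each of its domains and no RAD21 region in all 4. None of 12 mesenchymal neuroblastoma transcription factors had a broad domain, although 4 had a shared region.

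Other lists had smaller shares. Broad domains lay at 12 of 32 chromatin regulator genes, the widest at Arid1b (7060 bp), Tet3 (6710 bp), Hdac5 (6662 bp) and Kdm2b (4969 bp). Of 29 genes of hypoxia-inducible factor (HIF) signalling and glycolysis, 9 had one: Vegfa, which encodes an angiogenic growth factor (8901 bp), Pgk1 (7320 bp), Aldoa (6579 bp), Eno1 (6416 bp), Pfkl, Ddit4, Hk1, Gapdh and Egln1. The counts were 4 of 22 splicing and RNA binding genes, with Elavl4 (6689 bp) and Mbnl1 (6683 bp) the widest, then Srsf2 (4203 bp) and Srsf1 (4135 bp). They were 4 of 18 cytosolic ribosomal protein genes (Rpl8, Rps3, Rps2 and Rps19), 2 of 16 immediate early genes (Fos and Dusp1), 0 of 10 CTCF and cohesin genes and 0 of 8 noncoding host genes, for which only coding starts were counted. Among genes with a shared region, the share was 41.4% for chromatin regulators and 33.3% for HIF and glycolysis. It was 22.2% for ribosomal protein, 18.2% for splicing and 13.3% for immediate early genes, against 9.56% for all coding genes.

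The domains were then compared between O2 levels, first on H3K9ac itself, as a description because the rule used these lists. The covered share of a domain was higher at 4% O2 in both replicate pairs at 976 domains (53.6%, against 38.4% of all shared regions). It was lower in both at 129 (7.09%, against 16.8% of all shared regions). The median difference was 6.24 percentage points, against 4.31 over all shared regions. The order differed between the pairs: the median was 9.74 at domains and 2.41 over all shared regions in the pair numbered 1, but 2.27 and 5.05 in the pair numbered 2. In both pairs the list at 4% O2 was also the longer, with 79516 against 71857 peaks and 92649 against 84395. The score rank of the highest peak was taken in each library over the same shared regions. By this rank, 606 domains were higher at 4% O2 in both pairs (33.3%, against 27.4% of all shared regions). Lower in both were 367 (20.2%, against 27.4% of all shared regions). The covered shares of the groups did not overlap, higher at 4% O2, at 173 domains (9.51%, against 15.4% of all shared regions). Lower at 4% O2, they did not overlap at 19 (1.04%, against 6.42% of all shared regions). For the rank the counts were 281 (15.4% against 13.9%) and 159 (8.74% against 13.1%). The largest gains were inside Dab2ip (chr2:35674749-35679723), with 81.4% and 90.3% of the domain covered at 4% O2 and 13.7% and 71.7% at 20%, inside Coro1c (76.6% and 95.1% against 26.6% and 66.9%) and inside Syn2, a synaptic vesicle gene (90.1% and 94.3% against 26.6% and 85.0%). The largest losses were at Tal1 (41.3% and 61.2% against 92.5% and 75.2%), at Chac1, a glutathione-degrading enzyme gene (24.3% and 60.6% against 50.2% and 99.4%), and outside genes on chromosome 4 (chr4:131431470-131435758, 18.4% and 69.8% against 58.8% and 80.6%). The O2 groups did not overlap at Dab2ip, Coro1c, Syn2 and Tal1, and overlapped at the other two.

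Polymerase at the domains was tested on the reads of the islands, summed over regions called in all 4 libraries of a form. Such regions often reach far beyond the domain: their islands summed to a median of 11.2 to 23.8 kb per library for POLR2, 23.2 to 31.8 kb for POLR2S5 and 32 to 49.4 kb for POLR2S2. Reads between called islands are not in the lists and were not counted. A ratio thus also depends on how much of a region was called as island in each library. Domains touched 873 of 7811 POLR2 regions, 1111 of 9933 POLR2S5 regions and 798 of 5936 POLR2S2 regions. No region at a domain passed an adjusted p of 0.05 in edgeR's quasi-likelihood test, and none did over all regions (0% called in each direction for each form). Unadjusted p-values under 0.05 numbered 15 for POLR2, 28 for POLR2S5 and 40 for POLR2S2 at domains, or 1.72%, 2.52% and 5.01% of these regions, against 2.23%, 2.9% and 5.88% of all regions. The median log2 ratio of normalised reads at 4% over 20% O2 was 0.07 for POLR2, 0.00 for POLR2S5 and -0.01 for POLR2S2 at domains, and -0.03, -0.01 and 0.00 over all regions. Normalised POLR2 reads were higher at 4% O2 in both pairs at 325 of 873 regions (37.2%, against 28.8% of all regions) and lower in both at 195 (22.3% against 32.9%). For POLR2S5 the counts were 328 higher (29.5%, against 29.8% of all regions) and 306 lower (27.5% against 32%). For POLR2S2 they were 254 higher (31.8%, against 32.4% of all regions) and 256 lower (32.1% in both sets). Groups did not overlap, with 4% O2 higher, at 198 POLR2, 201 POLR2S5 and 156 POLR2S2 regions at domains. These were 22.7%, 18.1% and 19.5% of the regions at domains, against 14.9%, 15.3% and 20.3% of all regions. With 4% O2 lower, the counts were 51, 108 and 113. These were 5.84%, 9.72% and 14.2% of the regions at domains, against 15.9%, 15.4% and 19.1% of all regions. Per kb of island the POLR2 median turned to -0.37 at domains and -0.48 over all regions. Without 20% O2 replicate 2, which leaves at 20% O2 the library with the fewest island reads, 69 POLR2 regions at domains were called, 68 higher (7.79% of those at domains, against 2.28% of all regions) and 1 lower (0.218% of all regions). The same fit called 10 POLR2S5 regions at domains, all higher (0.453% of all regions were called higher and 0.0503% lower). Without 4% O2 replicate 2, 1 POLR2S5 region was called, lower (0% of all regions were called higher and 0.0201% lower). The lone library is assumed there to vary like the others.

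With the replicate number as a block, 1 POLR2 region at domains passed, higher (0.115%, against 0.0128% of all regions). No POLR2S5 region at domains passed, and 0.0302% of all were called lower. For POLR2S2, 4 regions at domains passed. Of these, 3 were higher (0.376%, against 0.0842% of all regions) and 1 lower (0.125%, against 0.101% of all regions). DESeq2 without the block called 1 POLR2 region at domains, higher (0.115%, against 0.0128% of all). It called no POLR2S5 region at domains (0.0705% of all were called higher and 0.121% lower). For POLR2S2 it called 6, of which 5 were higher (0.627%, against 0.539% of all) and 1 lower (0.125%, against 0.354% of all). The POLR2 region covered 2 adjoining domains inside Macrod1, a mono-ADP-ribosylhydrolase gene (chr19:7147027-7153373 and chr19:7153486-7160774). Its islands held 431 and 392 normalised reads at 4% O2 against 76 and 97 at 20% O2, so the groups did not overlap. The log2 ratio was 2.23 ± 0.34 (SE, n = 2 per level; adjusted p = 0.992 without and 0.0278 with the block, edgeR). Islands there summed to 9.8 and 13.6 kb at 4% and 1 and 3.6 kb at 20% O2. The log2 ratio per kb of island was -0.42, against a median of -0.48 over all POLR2 regions.

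The 4 POLR2S2 regions reached far beyond their domains. Each is the union of 4 lists, and the share of the gene that it spans was not measured. At 1700025G04Rik (domain chr1:152084156-152092214), the called islands of the region held 3076 and 3960 normalised reads at 4% O2 against 604 and 346 at 20%, a log2 ratio of 2.89 ± 0.40 (adjusted p = 0.521 without and 0.0257 with the block, edgeR). At Ralgps1, the gene of an exchange factor for Ral GTPases (intragenic domain chr2:33203439-33208302), they were 5374 and 6271 against 1519 and 1674, a log2 ratio of 1.87 ± 0.25 (0.521 and 0.0257). The third region ran over Cdh22, a cadherin gene with 2 domains (chr2:165155956-165160275 and chr2:165230575-165237479). Its reads were 3866 and 3864 against 1069 and 1072, a log2 ratio of 1.85 ± 0.25 (0.521 and 0.0332). In these genes the signal was higher in both libraries at 4% O2 and the groups did not overlap. Fam78b (domain chr1:166998184-167005519) had the opposite order, with 1194 and 1698 reads at 4% and 6277 and 5245 at 20% O2, a log2 ratio of -1.99 ± 0.29 (0.521 and 0.0332). The island length moved with the reads: 110 and 134 kb against 14.6 and 12.6 kb at 1700025G04Rik, 157 and 173 against 34.4 and 45.4 kb at Ralgps1, 122 and 129 against 24.4 and 35.8 kb at Cdh22, and 34.2 and 45.6 against 98.8 and 101.6 kb at Fam78b. Per kb of island the log2 ratios were -0.25, -0.20, -0.26 and -0.67, against a median of -0.37 over all POLR2S2 regions. On that scale only Fam78b lay below the median of all regions. Reads outside called islands were not counted on either scale.

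**Figure D4:**
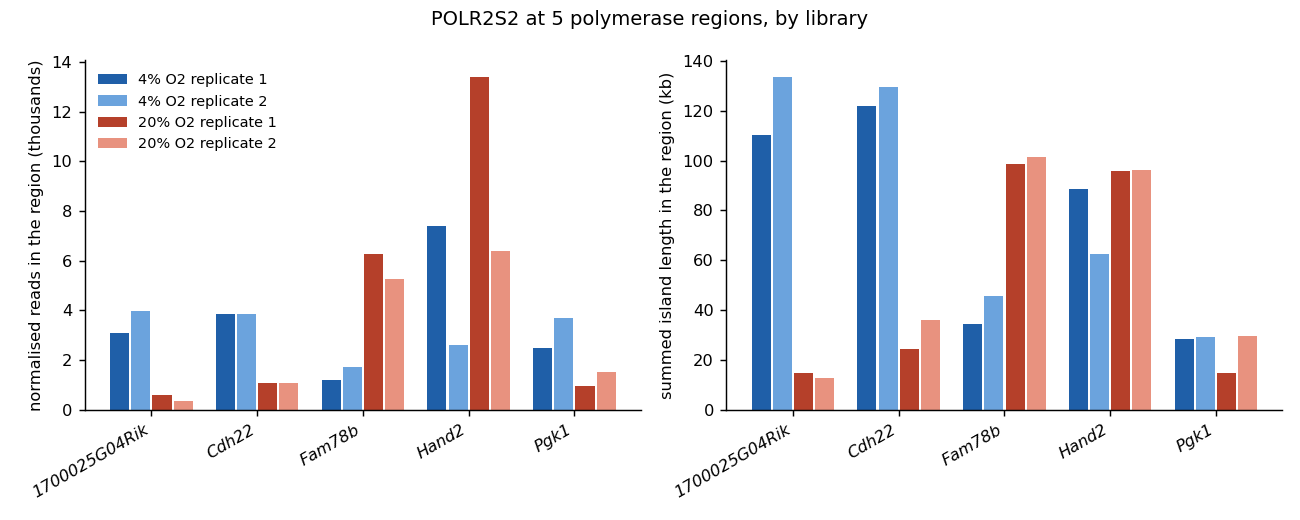
POLR2S2 at the polymerase regions of 5 broad domains: normalised reads (left) and summed island length in kb (right), one bar per library. At 1700025G04Rik and Cdh22 both measures are higher in both 4% O2 libraries and at Fam78b in both 20% O2 libraries; at Hand2 the O2 groups overlap in reads, with 7412 and 2601 at 4% and 13403 and 6374 at 20%.

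Other regions were named because their ratio was among the 3 highest or 3 lowest of a form with the same sign in both pairs, and their ratios were chosen for size. For POLR2 the highest beside Macrod1 were at Gm42316 (1.43) and Ablim1, an actin-binding protein gene (1.32), and the lowest at the alpha-actinin gene Actn1 (-1.23), the histone genes around H2bc14 (-1.21) and inside Snx18 (-1.20). For POLR2S5 they were Rnf217 (1.99), Ablim1 (1.63) and Rbms3 (1.55), against Mamdc2 (-2.45), the synaptotagmin gene Syt6 (-2.36) and the insulin-like growth factor receptor gene Igf1r (-1.50). For POLR2S2 they were 1700025G04Rik, Gm42316 (2.12) and Ssbp3 (2.10), against Mamdc2 (-2.12), Fam78b and Sspo (-1.62). None of these passed without the block in edgeR. Most moved widely when 1 library at a time was left out. For POLR2S5 the range was -4.26 to -1.67 at Mamdc2, -4.29 to -0.22 at Syt6, -2.05 to -0.52 at Igf1r, 1.36 to 3.22 at Rnf217, 0.81 to 3.803 at Ablim1 and 0.74 to 2.08 at Rbms3. For POLR2 it was 0.54 to 3.22 at Ablim1, -1.66 to -0.58 at Actn1, -1.77 to -0.24 at H2bc14 and -1.79 to -0.55 at Snx18, and for POLR2S2 it was -4.74 to -1.27 at Mamdc2 and -2.56 to -1.09 at Sspo. Per kb of island the sign turned at Gm42316 (POLR2), Ablim1, Actn1, Rnf217, Rbms3 and Ssbp3. Libraries of a group could differ widely: Syt6 had 1090 and 165 normalised POLR2S5 reads at 4% against 5727 and 731 at 20% O2, so the groups overlapped. Chac1, which lost H3K9ac cover at 4% O2, had 1071 and 762 normalised POLR2S5 reads at 4% and 2599 and 1769 at 20% O2, a log2 ratio of -1.25 ± 0.35 (adjusted p = 0.999, edgeR).

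POLR2S2 at 3 of the widest domains did not pass the test between O2 levels. At the domain near let-7b, normalised POLR2S2 reads were 8878 and 6576 at 4% and 10132 and 6912 at 20% O2 (log2 ratio -0.14 ± 0.30, adjusted p = 0.915). In Slit3 they were 11398 and 5336 against 23700 and 8171 (-0.93 ± 0.60, 0.809; 0.03 without 20% O2 replicate 1), with the hairpin of miR-218-2 58.3 kb from the domain and inside the same region. At Frmd4a they were 15403 and 13156 against 26218 and 19164 (-0.67 ± 0.27, 0.809). Frmd4a was the one of the 3 whose groups did not overlap.

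At the transcription factor genes most polymerase ratios were below 0. The median log2 ratio was -0.43 over 11 POLR2 regions (2 higher and 7 lower in both pairs, where 28.8% and 32.9% of all regions were), -0.38 over 15 POLR2S5 regions (2 and 10, against 29.8% and 32%) and -0.41 over 13 POLR2S2 regions (2 and 8, against 32.4% and 32.1%). Per kb of island the list medians were -0.41, -0.47 and -0.48, against -0.48, -0.30 and -0.37 over all regions, so for POLR2 the list was not below the median of all regions on that scale. None passed the test; the smallest adjusted p was 0.809 (edgeR, no block). Leaving out 1 library at a time moved the medians over -0.80 to -0.05, -0.84 to -0.02 and -0.63 to -0.12; for POLR2 and POLR2S5 the values nearest 0 came without 20% O2 replicate 1, and for POLR2S2 without 4% O2 replicate 2. By region reads, Hand2 had the lowest ratios of the list in all 3 forms. Per kb of island it did not, with -0.41, -0.58 and -0.72 against -1.06, -0.95 and -0.74 at Myc. Hand2 had 3759 and 1426 normalised POLR2 reads at 4% against 6938 and 2801 at 20% O2, a log2 ratio of -0.91 ± 0.58 (adjusted p = 0.992, edgeR). Its POLR2S5 reads were 6270 and 1868 against 11099 and 4168 (-0.91 ± 0.67, 0.999), and its POLR2S2 reads 7412 and 2601 against 13403 and 6374 (-0.98 ± 0.60, 0.809). Within each replicate pair the 4% library was the lower, but replicate 1 exceeded replicate 2 by so much that the O2 groups overlapped. Without 20% O2 replicate 1 the ratios were -0.10, -0.03 and -0.35.

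Sox11 and Sox4, related factors of immature neurons, showed the same order. Sox11 had 684 and 414 normalised POLR2S2 reads at 4% and 1077 and 817 at 20% O2, a log2 ratio of -0.79 ± 0.46 (adjusted p = 0.809, edgeR), without overlap. Sox4 had 670 and 339 POLR2S5 reads against 1022 and 528 (-0.62 ± 0.51, 0.999), with overlap. Myc, the growth regulator, had 1292 and 817 POLR2 reads against 2061 and 1185 (-0.62 ± 0.42, 0.992), with overlap, and its paralogue Mycn 601 and 406 against 790 and 500 (-0.36 ± 0.38, 0.992; 0.02 without 20% O2 replicate 1). Klf7 had 6213 and 4091 POLR2S2 reads against 9928 and 6110 (-0.64 ± 0.35, 0.809), where the groups came close but overlapped by a small margin. The values of Insm1 (POLR2, -0.43 ± 0.40) and Meis1 (POLR2S5, -0.38 ± 0.42) were each close to their SE. Leaving out 1 library at a time moved these ratios widely, over -1.22 to -0.49 at Sox11, -1.19 to -0.068 at Sox4, -0.99 to -0.16 at Myc, -1.002 to -0.25 at Klf7, -0.80 to -0.052 at Insm1 and -0.84 to -0.015 at Meis1. Per kb of island, in the same forms, the ratios were -0.81 at Sox11, -0.59 at Sox4, -1.06 at Myc and -0.21 at Mycn. They were -0.59 at Klf7, -0.76 at Insm1 and -0.81 at Meis1. Only that of Mycn lay above the median of all regions of its form.

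The list was not uniform. Phox2a had 3151 and 2359 normalised POLR2S2 reads at 4% and 2488 and 1450 at 20% O2 (log2 ratio 0.49 ± 0.36, adjusted p = 0.81, edgeR), with overlap and a ratio of -0.06 per kb of island. Zfhx3 had 440 and 330 POLR2S2 reads against 124 and 174 (1.37 ± 0.49, 0.809), without overlap. Its islands, however, summed to 15 and 15.8 kb at 4% and 3 and 6.6 kb at 20% O2. Per kb of island its ratio was -0.40, against a median of -0.37 over all POLR2S2 regions. Th, a target of these factors, had 1337 and 1536 POLR2 reads against 503 and 1213 (0.74 ± 0.46, 0.992), without overlap. Leaving out 1 library at a time gave 0.15 to 0.93 at Phox2a and 0.25 to 1.53 at Th.

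At domains of the HIF and glycolysis list the ratios were mostly above 0. The median log2 ratio was 0.28 over 8 POLR2 regions (5 higher and 0 lower in both pairs, where 28.8% and 32.9% of all regions were), 0.36 over 9 POLR2S5 regions (6 and 0, against 29.8% and 32%) and 0.50 over 9 POLR2S2 regions (6 and 0, against 32.4% and 32.1%). None passed the test; the smallest adjusted p was 0.774 (edgeR, no block). Per kb of island the list medians were -0.40, 0.06 and 0.16, against -0.48, -0.30 and -0.37 over all regions. Pgk1, phosphoglycerate kinase, had 2467 and 3675 normalised POLR2S2 reads at 4% and 954 and 1510 at 20% O2, a log2 ratio of 1.32 ± 0.37 (adjusted p = 0.809, and 0.117 with the block, edgeR). Its POLR2S5 reads were 1932 and 3024 against 1342 and 1398 (0.86 ± 0.32, 0.999). Neither form overlapped between O2 levels, and per kb of island the ratios were 0.88 and 0.72. Pfkl, a phosphofructokinase gene named after its values were seen, had 3545 and 5812 POLR2S2 reads against 1554 and 1901 (1.44 ± 0.33, 0.774).

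Aldoa, whose gap is printed above, had 3888 and 4453 POLR2S2 reads at 4% and 2623 and 3258 at 20% O2 (log2 ratio 0.50 ± 0.25, adjusted p = 0.809, edgeR). Eno1, an enolase gene, had 3053 and 3178 against 2404 and 2009 (0.50 ± 0.25, 0.809). Both were higher in each 4% library than in either 20% library. Vegfa, in contrast, had 4716 and 2706 against 4401 and 3136 (-0.02 ± 0.36, 0.99), with the 4% values on both sides of the 20% values. The direct difference between the 2 lists was not tested.

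**Figure D5:**
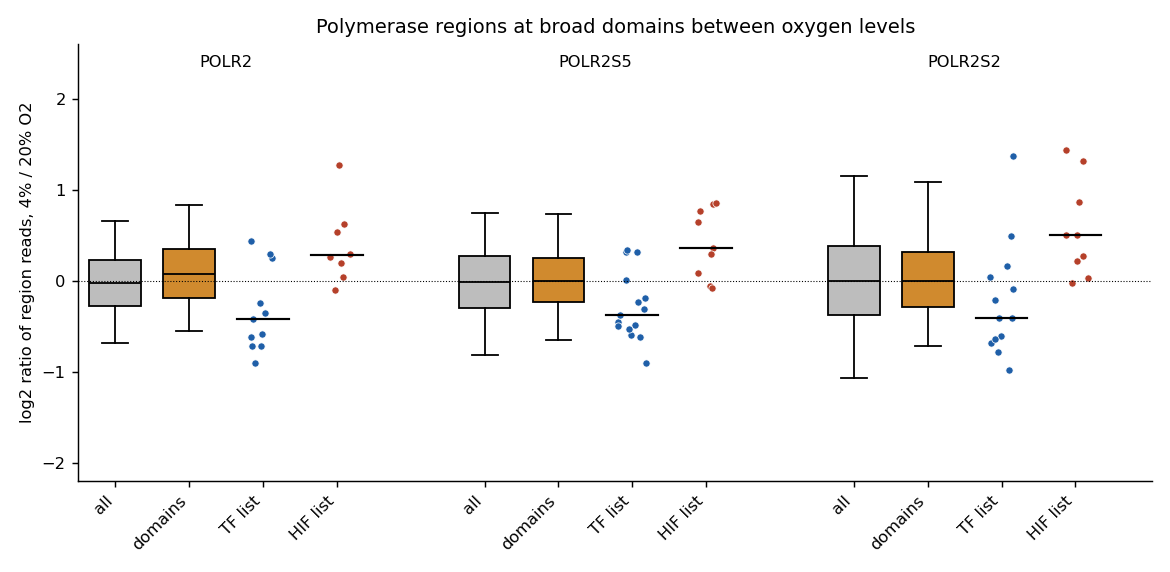
Log2 ratio of region reads at 4% over 20% O2 (y axis) for POLR2, POLR2S5 and POLR2S2: boxes (quartiles and median; whiskers, 5th to 95th percentile) for all regions and for regions at broad domains, points for regions at domains of the transcription factor (TF) list and the HIF and glycolysis list, with their medians as lines. List medians run from -0.43 to -0.38 for the first and from 0.28 to 0.50 for the second, and no region passed the test without the block.

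Polymerase values at the remaining lists stayed closer to 0 or rested on few regions. The medians were 0.15, 0.08 and 0.14 for POLR2, POLR2S5 and POLR2S2 over 10, 11 and 10 regions of chromatin regulators, and -0.24, -0.20 and -0.23 over 4 regions each of ribosomal protein genes. The splicing list had medians of -0.02, -0.11 and -0.35 over 2, 3 and 3 regions; among them was Elavl4, a neuronal RNA-binding protein gene, with 2784 and 1682 normalised POLR2S2 reads at 4% and 4676 and 3718 at 20% O2 (log2 ratio -0.91 ± 0.33, adjusted p = 0.809, edgeR), without overlap.

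The number of domains with a CTCF peak was 1258 and 1180 at 4% O2 and 1095 and 1129 at 20% O2, or 1219 ± 55.2 against 1112 ± 24.04 (SD, n = 2). Both 4% libraries were above both 20% libraries, and the exact permutation test gave p = 0.333 (two-sided), the smallest that 2 against 2 libraries allow. The same order held over all shared H3K9ac regions, of which 42.9% and 41.3% had a CTCF peak at 4% and 37.8% and 38.4% at 20% O2. For RAD21 the numbers were 1105 and 1492 against 584 and 1481, or 1298.5 ± 273.7 against 1032.5 ± 634.3 (exact permutation p = 0.667, two-sided), with the libraries at 20% O2 far apart. At 1344 CTCF regions inside domains, the score rank of the peak was higher at 4% O2 by a median of 4.82 percentile points (3.10 and 5.47 in the 2 pairs), against 2.92 at CTCF regions in all shared H3K9ac regions and 0.116 over all CTCF regions. At 711 RAD21 regions the values were 6.34 (6.51 and 5.33), 4.16 and 0.200. Median ranks at the CTCF regions inside domains were 39.1 and 60.6 at 4% O2 (replicates 1 and 2) and 33.6 and 50.7 at 20% O2. At the RAD21 regions they were 48.4 and 60.7 against 35.9 and 52.1. For both proteins 4% O2 replicate 1 thus lay below 20% O2 replicate 2. Ranks were taken in each library over the same regions, those called in all 4, and no test across libraries was made of them.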

How the data were processed

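Members and gene lists were chosen with earlier results of these data known. Per the submitters' processing notes, the work used BWA, Picard, SICER and MACS2 with the build mm10; their versions are not given in the sources here. Per the file headers, MACS2 called the peaks of CTCF, RAD21 and H3K9ac and SICER the islands of the polymerase forms, in each library against an input of its O2 level. Judged from the values, the deposited MACS2 scores are −log10 q-values and the deposited SICER scores are counts of reads per island. Scores only ranked or filtered peaks within a list. Libraries held 71857 to 92649 H3K9ac peaks and 2.06 to 16.6 M island reads, the fewest in 20% O2 replicate 1 for each polymerase form; library depth is not given, so no counting interval was computed. The 6 inputs were not analysed here. For 12 replicate 2 libraries a second deposited list held the same scores and was counted once.

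A gene start lay within 1 kb of a domain, taken from RefSeq (GRCm38.p6); where no strand was given, either gene end was used. Island reads were summed over merged regions called in all 4 libraries, normalised by TMM and compared with edgeR 4.0.16 in R 4.3.3 (quasi-likelihood test, Benjamini-Hochberg over all regions, threshold 0.05), after tests on simulated data; the alternative DESeq2 was 1.42.0. Normalised reads are counts divided by TMM-scaled library size; ratios are 4% over 20% O2. Numbers of domains with a peak were set against each other by an exact permutation test (smallest p 0.333). For each antibody the replicate number marks a flow cell shared by both O2 levels, so it pairs the libraries. There were 3 flow cells, per the file headers. Deviations of same-numbered libraries correlated at 0.53, 0.55 and 0.39 for POLR2, POLR2S5 and POLR2S2. A fit with the replicate number as a block was the alternative. Domains were named by width, by list membership (up to 4 per list), by highest and lowest ratios with the same sign in both pairs, by change in H3K9ac cover, by position at the threshold and by number of CTCF regions. Scripts ran in Python 3.11.15 with pandas 2.3.3, NumPy 2.4.6, SciPy 1.17.1 and Matplotlib 3.10.9.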

Additional observations from a re-analysis of the deposited data

How the results depend on the processing

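The number of domains was 4423 at a width of 3000 bp or more, 895 at 5000 bp or more and 6119 when gaps of up to 500 bp were bridged; leaving out 1 library at a time gave 1206 to 1735, the lowest without 4% O2 replicate 2. With the higher-scoring part of each list (peaks above its median score), RAD21 in all 4 libraries was at 282 domains; the counts for gene starts, CTCF and polymerase stayed within 1.5 times under their alternatives. Calls at domains numbered 0 without a block; with the replicate block they were 1 for POLR2, 0 for POLR2S5 and 4 for POLR2S2, and with DESeq2 1, 0 and 6. Leaving out 1 library gave 0 to 69 for POLR2, 0 to 10 for POLR2S5 and 0 to 0 for POLR2S2. Another scaling or no filter on low counts left 0. Reads per kb of island moved the POLR2 median at domains to -0.37. Over all regions the medians per kb were -0.48 for POLR2, -0.30 for POLR2S5 and -0.37 for POLR2S2. Ratios on that scale thus ran low as a whole. The same division reversed the log2 ratios of Phox2a (-0.056), Zfhx3 (-0.40), Vegfa (0.021), 1700025G04Rik (-0.25), Ralgps1 (-0.20), Cdh22 (-0.26) and Ssbp3 (-0.13) for POLR2S2, of Macrod1 (-0.42), Gm42316 (-0.77), Ablim1 (-0.61) and Actn1 (0.31) for POLR2, and of Ablim1 (-0.33), Rnf217 (-0.34) and Rbms3 (-0.13) for POLR2S5. Leaving out 1 library gave ranges across 0 for Mycn (POLR2, -0.66 to 0.015), Slit3 (POLR2S2, -1.61 to 0.034), Vegfa (POLR2S2, -0.51 to 0.30) and the let-7b domain (POLR2S2, -0.40 to 0.16). The cause was not tested. The block changed no other call at the domains named.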
